A study of Homo sapiens with 2 samples.

Results

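The proteasome subunits described here are 32 protein-coding genes, chosen by name, of the 19994 protein-coding genes in the count table. They comprise the 14 subunits of the 20S core, made of 7 alpha (PSMA) and 7 beta (PSMB) subunits. They also comprise 18 genes of the 19S regulatory particle, made of 6 base ATPases (PSMC), 4 base subunits without ATPase activity (PSMD1, PSMD2, PSMD4 and ADRM1) and 8 lid subunits. All 32 were found in the table, and 31 had at least 1 count.

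The study made ribosome profiling libraries, which sequence the RNA fragments protected by ribosomes, from HEK293T, a transiently transfectable line from human embryonic kidney. Both cultures (15 cm dishes, genotype labelled WT) received the pCMV-Nes--chPylRSIPYE plasmid. It encodes the synthetase TetRS and 12 U6-CM15CGA tRNA cassettes, and TetBu was present in both. One culture, RiboW, also received pEGFP-mCherry-T2A-EGFP-151TCG, a fluorescent reporter with the serine codon TCG in EGFP, and the other, RiboWo, did not. Both were collected after 30 h of expression and 1 min in 0.1 mg/mL cycloheximide, which halts cytosolic ribosomes. Each group is 1 dish and 1 library, so every value below compares these libraries and has no replicate check, and no p-value is given.

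The proteasome degrades proteins marked with ubiquitin. Its core is a barrel of stacked rings: the outer alpha rings gate the entry, and the inner beta rings carry the proteolytic sites on PSMB5, PSMB6 and PSMB7. The regulatory particle caps the barrel. Its base holds a ring of AAA ATPases that unfold and push in the substrate, with the ubiquitin receptors PSMD2, PSMD4 and ADRM1, and its lid holds PSMD14, the metalloprotease that removes ubiquitin chains. When proteasome capacity falls short, the transcription factor NRF1 (gene NFE2L1) raises many subunit genes together through antioxidant response elements in their promoters.

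The libraries held 2519301 counts with the reporter (RiboW) and 3151403 without it (RiboWo), of which protein-coding genes made 346240 and 307768. All members together had 1967 and 1578 counts, or 0.568% and 0.513% of the coding counts. The sum over both libraries ran from 0 for PSMA2 to 375 for PSMA7, and 15 members reached 100, the minimum for a ratio to be read gene by gene. Of these 15, 12 had more raw counts with the reporter and 3 fewer, against 71.4% and 27.0% of the 1060 coding genes with at least 100 counts, so the tally of raw counts is near the background. The 6 most counted members held 44.6% of all member counts. The members ranked alike in both libraries, with a Spearman correlation of 0.95 over the 32 genes, which is a description across genes that share their libraries.

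As a whole, the proteasome genes took a slightly larger share of coding counts in the library with the reporter, within counting error of the median coding gene. The excess lay mostly in the 20S core. The pooled log2 ratio of the 32 genes to all coding counts was 0.15, with an exact Clopper-Pearson interval at 95% of 0.05 to 0.24. For the 20S core it was 0.28 (0.14 to 0.43), from 981 counts against 716. For the base ATPases it was 0.20 (-0.08 to 0.47), from 259 against 201, and for the other base subunits 0.05 (-0.19 to 0.29), from 304 against 261. The lid lay at -0.09 (-0.29 to 0.11), from 423 against 400. On the same scale the median coding gene with at least 100 counts lay at 0.07, inside the interval of the 32 genes. With mitochondrially encoded genes left out of the coding total, the 32 genes were at 0.10 (0.007 to 0.20) and the 20S core at 0.24 (0.10 to 0.38). These intervals cover counting error only, and they take each read as independent, which PCR copies are not, and the sources used here name no molecular identifiers. The log2 ratios of the 15 measured members had an SD of 0.41, where counting error gives 0.23, so members differed among themselves by more than counting and the pooled intervals are too narrow for a difference between conditions. Over the 858 coding genes in the same range of 103 to 375 counts the SD was 0.47, with 0.24 from counting.

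No single member met the rule for a marked difference, a ratio of at least 2-fold with an interval that excludes 0 on the log2 scale. Among all 1060 coding genes with at least 100 counts, 30 did so as higher with the reporter (2.83%) and 6 as lower (0.566%), so 0 of 15 members is near this background. The counts were scaled with the TMM method, which leaves the median coding gene at a log2 ratio of 0.11. Scaling by total counts would raise every log2 ratio by the same amount and put all 15 measured members above 0, with PSMD2 lowest at 0.03, so the sign of a single ratio depends on the scaling. Above that median lay 8 of the 15 measured members, and by construction the median divides all coding genes evenly. The interval lay wholly above the coding median for 2 members, PSMA3 and PSMB3, and wholly below it for 1, PSMD12. The same held for 17.8% of coding genes above and 16.1% below, so these counts too are near the background.

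In the alpha rings, which gate the core, PSMA3 and PSMA1 lay furthest from level, in opposite directions. PSMA3 had 172 counts in RiboW and 91 in RiboWo, a log2 ratio of 0.79 (0.41 to 1.17). Its locus (chromosome 14, 58244843 to 58272012) overlaps the antisense gene PSMA3-AS1, which had 31 and 27 counts. PSMA7, the most counted subunit of all, had 215 and 160 counts, a ratio of 0.29 (-0.01 to 0.60). PSMA5 had 46 and 30 counts and PSMA4 46 and 37, so each had more counts with the reporter, within counting error. PSMA1 had 1 count in RiboW and 12 in RiboWo, a ratio of -3.72 with an interval of -9.13 to -0.96. It was the only subunit under the minimum that would meet the 2-fold rule as lower, which without a minimum 5.62% of the 11213 coding genes counted in both libraries do. PSMA6 had 3 and 2 counts, and PSMA2 had 0 in each library, where a count of 0 allows up to 3. Pooled over the 7 genes, the alpha rings had 483 counts against 332, a log2 ratio to coding counts of 0.37 (0.17 to 0.58). PSMA3 held 172 and 91 of these counts, and the pooled value was not computed without it.

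In the beta rings, PSMB3 (chromosome 17, 38752741 to 38764225), a structural subunit without a proteolytic site, had the highest ratio of the 15 measured members. It had 81 counts in RiboW and 38 in RiboWo, a log2 ratio of 0.96 (0.39 to 1.56), just short of 2-fold. PSMB2, also structural, had 150 and 100 counts, a ratio of 0.45 (0.08 to 0.83). PSMB1 was level, with 136 and 135 counts and a ratio of -0.12 (-0.48 to 0.23). PSMB4 had fewer counts with the reporter, 47 against 56, at -0.38 (-0.98 to 0.20). By value, the neighbours of 1 ring thus lay on both sides of the coding median. Of these genes only PSMB3 had an interval that excluded that median, so the split is within counting error for the others.

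The 3 catalytic subunits all stayed under the minimum of 100 counts. PSMB5, which cuts after hydrophobic residues (the chymotrypsin-like site) and is the main target of bortezomib, had 52 counts in RiboW and 31 in RiboWo. PSMB6, the caspase-like site, had 14 and 3, a log2 ratio of 2.09 (0.25 to 4.53), and was the only subunit under the minimum that would meet the 2-fold rule as higher, against 5.15% of coding genes without a minimum. PSMB7, the trypsin-like site, had 18 and 21. Together they had 84 against 55 counts, a ratio to coding counts of 0.44 (-0.07 to 0.96), which counting error alone could span. The whole beta ring list was at 0.21 (0.01 to 0.40), and was not computed without PSMB3. The alpha over the beta list was at 0.17 (-0.12 to 0.45). It was at -0.007 (-0.32 to 0.31) without PSMA3 and at 0.27 (-0.02 to 0.57) without PSMB3.

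The base ATPases form the ring that couples ATP hydrolysis to unfolding. PSMC5 (also called Rpt6) had 92 counts in RiboW and 68 in RiboWo, a log2 ratio of 0.30 (-0.16 to 0.78). Its locus overlaps FTSJ3 on the opposite strand, with 95 and 79 counts, and reads from the overlap cannot be assigned without knowing how strand was handled. PSMC4 had 87 and 61 counts, a ratio of 0.38 (-0.11 to 0.88). The other 4 ATPases were under the minimum. PSMC3 had 32 and 28 counts, PSMC6 27 and 27, PSMC2 11 and 15, and PSMC1 10 and 2. The last pair gives a ratio of 2.19 with an interval of -0.04 to 5.42. None of the 6 intervals excluded 0.

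Among the other base subunits, the ubiquitin receptors had ratios on both sides of 0. ADRM1 (Rpn13) had 87 counts in RiboW and 59 in RiboWo, a log2 ratio of 0.43 (-0.07 to 0.93). PSMD4 (Rpn10) had 101 and 95 counts, a ratio of -0.04 (-0.46 to 0.38). PSMD2 (Rpn1; chromosome 3, 184299198 to 184309050) had the lowest ratio of the measured members, with 48 and 59 counts and -0.43 (-1.01 to 0.14). PSMD1, the large scaffold subunit Rpn2, had 68 and 48 counts, a ratio of 0.37 (-0.18 to 0.93). All 4 intervals included 0, and the order of the ratios is within counting error. Part of the ADRM1 locus lies in LAMA5 on the opposite strand, which had 23 and 29 counts.

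The lid genes were near level as a list. PSMD12 (Rpn5; chromosome 17, 67337916 to 67366605), the most counted of them, had 104 counts in RiboW and 123 in RiboWo, a log2 ratio of -0.37 (-0.77 to 0.01). PSMD7 (Rpn8), the partner of the deubiquitinase PSMD14, had 80 and 73 counts, and PSMD11 (Rpn6) had 56 and 48, a ratio of 0.09 (-0.49 to 0.68). PSMD14 itself had 46 and 27 counts, a ratio of 0.64 (-0.08 to 1.38), the highest in the lid but under the minimum of 100. PSMD6 had 34 and 42 counts. PSMD8, PSMD13 and PSMD3 had 39, 32 and 32 counts with the reporter and 34, 28 and 25 without it. The lid subunit SEM1, which was not among the 32, had 45 and 42 counts. Of the 8 lid genes, 6 had more raw counts with the reporter and 2, PSMD12 and PSMD6, had fewer. Among coding genes with at least 100 counts, 71.4% had more with the reporter, but only 3 of the lid genes reached that minimum. The share over coding genes without a minimum was not computed, so this tally has no like background. After scaling, 0 of the 3 measured lid genes lay above the coding median.

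Set against each other, the 20S core was higher than the lid and not distinguishable from the base ATPases. These 3 comparisons are independent of the scaling, since each divides one pooled ratio by another. The 20S core over the lid was at a log2 difference of 0.37 (exact conditional interval 0.13 to 0.62), a 1.30-fold higher ratio. The 20S core over the base ATPases was at 0.09 (-0.22 to 0.40), and the base ATPases over the lid at 0.28 (-0.06 to 0.63). The core-to-lid difference rested on PSMD12: without it the value was 0.25 (-0.03 to 0.53), while it stayed above 0 by its interval in the other 21 of 22 cases in which 1 member was left out. The 20S core over the whole 19S particle was at 0.26 (0.07 to 0.46), and its interval included 0 without PSMA3 (0.18, -0.03 to 0.38) and without PSMD12 (0.20, -0.002 to 0.40). Without the 10 members whose loci overlap another counted gene, the core-to-lid difference was 0.28 (-0.03 to 0.58), and the pooled ratio of the remaining proteasome genes to coding counts was 0.09 (-0.02 to 0.21).

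Levels of different genes were compared per kilobase of the gene length listed in the table, which includes untranslated parts and so understates genes with long ones. The density over both libraries had a median of 21.7 counts per kilobase over the 32 genes. It spanned 279-fold between PSMA7, at 214, and PSMA6, the lowest above 0, at 0.769, although the finished complex holds its core subunits in equal numbers. By median the beta list was at 53.6 counts per kilobase, the base subunits without ATPase activity at 43.2, the ATPases at 16.8, the lid at 14.2 and the alpha list at 11.9. The order turns on 5 genes with uncertain counts, described next: without them the alpha list was at 49.0 over 4 genes and the ATPases at 31.9 over 4. The deposited RPKM values, which use the same length, placed PSMA7 first with the reporter at 42.7, ahead of PSMB3 at 24.1, PSMB1 at 21.3 and PSMA3 at 19.3. Without the reporter PSMA7 was at 33.1, PSMB1 at 22.0, PSMB3 at 11.8 and PSMD4 at 11.4. The catalytic PSMB5 had 11.7 and 7.24, PSMB7 had 3.50 and 4.25, and PSMB6 had 3.37 and 0.750. The densities of the subunits of 1 ring thus differed far beyond their counting error in both libraries, but they also depend on the listed length. PSMA7 is listed at 1752 bases and PSMA6 at 6506. Over the 32 genes the Spearman correlation of listed length with summed count was -0.30. How far the listed length matches the mRNAs in these cells was not tested, so the span is not a measure of subunit output.

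The members with the lowest density were mostly those whose loci are shared with other genes. PSMA1, PSMA2, PSMA6 and PSMC2 overlap another protein-coding gene on the same strand, and they ranked 28, 32, 31 and 29 of the 32 in density. An unnamed coding gene covers 100% of the PSMA2 locus (chromosome 7, 42916828 to 42932185) and had 0 and 2 counts. Another covers 99.95% of PSMA6 (chromosome 14, 35278633 to 35317493) and had 0 in both, and another covers 11.1% of PSMA1 with 0 in both. For PSMC2 the overlap with PMPCB was 2.25% of the locus. The 4 densities were at most 4.26 counts per kilobase, against a median of 24.99 over the other 28 members. The remaining member among the 5 lowest, PSMC1 at 1.96, has 13 annotated pseudogenes, more than any other member, of 33 in all. Those of PSMC1 had 3 counts and 0, and all 33 together 5 and 3. On the opposite strand, DNAJC2 (45 and 60 counts) covers 38.9% of PSMC2 and SLC26A5 (0 and 3) 42.2%. NRDE2 (10 and 14) covers 40.0% of PSMC1 on that strand. PSMA3 and PSMC5 also overlap counted genes on the opposite strand, at densities of 84.6 and 37.4. The sources used here do not say how strand and reads matching several genes were treated. The part of shared loci and copies in the 5 lowest densities was not tested. The counts of PSMA1, PSMA2, PSMA6, PSMC1 and PSMC2 are therefore uncertain.

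The promoters of the members with the highest and the lowest ratio are shown because the factor NRF1 acts on proteasome genes through the antioxidant response element. The element was searched as TGACNNNGC on both strands in the 250 bases before each RefSeq gene start (GRCh38.p14). Such windows were found for 27 of the 32 members. The windows of PSMB3 (chr17:38752491-38752740, plus strand) and PSMD2 (chr3:184298991-184299197, plus strand, cut where the listed gene begins) read as follows, with the match in capitals.
PSMB3: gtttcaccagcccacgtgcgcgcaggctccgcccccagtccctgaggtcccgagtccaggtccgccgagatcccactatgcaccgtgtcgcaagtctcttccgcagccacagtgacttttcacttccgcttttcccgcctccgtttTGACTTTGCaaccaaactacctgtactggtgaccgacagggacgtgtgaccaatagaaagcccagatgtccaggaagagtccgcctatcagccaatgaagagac
PSMD2: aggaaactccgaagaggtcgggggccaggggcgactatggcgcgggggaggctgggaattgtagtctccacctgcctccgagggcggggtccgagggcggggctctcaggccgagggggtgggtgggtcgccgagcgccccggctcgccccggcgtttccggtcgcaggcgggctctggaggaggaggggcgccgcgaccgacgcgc

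The match in PSMB3 begins 104 bases before the gene start, and PSMD2 has none in its windows. A match was found for 6 of the 27 members (22.2%), against 13.2% of all 27305 genes with a window. This difference rests on few genes and was not tested. The matches of the other 5 members are shown with 10 bases on each side, with the element in capitals. Those of ADRM1, PSMA4 and PSMC5 come from windows before a RefSeq start that lies inside the gene as the count table lists it, so these matches are within the listed gene. Those of PSMB3, PSMD12 and PSMD3 lie outside it. The 13.2% over all genes was not split in this way, so it is no background for the matches outside the listed gene alone.
ADRM1: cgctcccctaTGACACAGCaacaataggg
PSMA4: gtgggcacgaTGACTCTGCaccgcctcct
PSMC5: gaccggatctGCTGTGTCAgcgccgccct
PSMD12: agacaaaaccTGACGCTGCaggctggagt
PSMD3: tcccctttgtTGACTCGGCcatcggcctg

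The element of PSMC5 lies on the opposite strand. The log2 ratios of the 6 genes ran from -0.37 for PSMD12 to 0.96 for PSMB3, with ADRM1 at 0.43, PSMC5 at 0.30, PSMD3 at 0.22 and PSMA4 at 0.18. A match describes these letters only and is not evidence of a bound site.

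Genes around the proteasome were read from lists of assembly, activation and delivery factors. The 9 assembly factors had 130 counts in RiboW and 95 in RiboWo, a log2 ratio to coding counts of 0.28 (-0.11 to 0.68). The most counted was POMP, the maturation factor of the core, with 55 and 28 counts. The core chaperone PSMG1 had 12 and 3, and the base chaperone PSMD5 had 0 and 8, so single factors lay on both sides. The 5 activators and inhibitor genes had 123 and 91 counts, at 0.26 (-0.14 to 0.67), with PSME3 at 45 and 41 and the inhibitor PSMF1 at 31 and 15. None of these 14 genes reached 100 counts, so none was read gene by gene.

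Genes that deliver substrates were level. The 11 associated enzymes and shuttles had 329 and 302 counts, a log2 ratio to coding counts of -0.05 (-0.28 to 0.18). Among the 3 measured, the ubiquitin ligase UBE3C was highest at 0.32 (-0.27 to 0.91). The 7 genes of ubiquitin activation and the p97 pathway had 440 and 389 counts, at 0.01 (-0.19 to 0.21). UBA1, the main ubiquitin-activating enzyme, was highest of the 4 measured at 0.17 (-0.29 to 0.64), and VCP, the p97 unfoldase itself, lowest at -0.33 (-0.81 to 0.16). The cofactors UFD1 and NPLOC4, which bind p97 as a pair, had 91 and 94 counts with the reporter and 79 and 84 without it. No measured gene of these lists met the 2-fold rule.

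The 7 genes of the NRF1 axis, which include VCP, had 204 counts in each library, at -0.17 (-0.46 to 0.12). NFE2L1 had 44 counts in RiboW and 30 in RiboWo, a log2 ratio of 0.42 (-0.28 to 1.14). DDI2, the protease that activates NRF1, had 12 and 23, a ratio of -1.07 (-2.21 to -0.005). It is under the minimum of 100 counts. Without a minimum, 5.62% of the 11213 coding genes counted in both libraries met the 2-fold rule as lower. Footprint counts do not show the activity of a factor, and only VCP of this list reached 100 counts.

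The inducible and tissue-specific subunits that replace core subunits in immune cells, thymus and testis were at or near 0. PSMB8, PSMB11 and PSMA8 had 0 counts in both libraries, PSMB9 had 5 and 3, and PSMB10 had 2 and 0. The 8 leukocyte markers had 8 and 20 counts, a log2 ratio to coding counts of -1.49 (-2.88 to -0.25), with PTPRC and CD3E at 0 in both libraries. CORO1A (1 and 14) and LCP1 (0 and 6) had fewer counts with the reporter. The other 4, CD14 (3 and 0), SRGN (2 and 0), LYZ and CD79A (1 and 0 each), had more, so this list did not move as a unit. Markers of fibroblasts (6 genes) had 40 and 64 counts, at -0.85 (-1.46 to -0.26). In that list 4 genes had fewer counts with the reporter, among them COL1A2 (4 and 21), COL3A1 (4 and 19) and COL1A1 (6 and 13). The other 2 had more, among them ACTA2, the most counted, at 23 and 9. The list of hepatocyte and serum markers (5 genes) also held the haemoglobin genes HBB and HBA1. It had 1 and 28 counts, at -4.98 (-10.3 to -2.38), with ALB at 0 and 13 and HBA1 at 0 in both. The 4 neuron-like and kidney genes that HEK293 lines express had 169 and 110 counts, a log2 ratio to coding counts of 0.45 (0.09 to 0.81). NEFL had 106 and 49 counts and NEFM 56 and 50. The kidney genes went the other way, PAX2 with 2 and 4 counts and LHX1 with 5 and 7, so the pooled value rests mainly on NEFL. The leukocyte, fibroblast and hepatocyte lists lay further from level than any list of the 32 subunits, on few counts, and their part in the subunit ratios was not tested. A footprint count also joins the amount of an mRNA with its translation, which these libraries alone cannot tell apart.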

How the data were processed

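The deposited table held whole-number counts per gene for both libraries. Per the submitters' processing notes, HTSeq 0.9.1 and TopHat2 2.0.12 were used, in steps that are not described. The authors' second table held RPKM values for the same genes. Those notes list GRCh37 and hg19, but all 32 members overlapped their RefSeq GRCh38.p14 locus with a gene end within 1000 bases, so coordinates are taken as GRCh38. The sources used here do not say how strand and multiply matching reads were treated.

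Library sizes were scaled with TMM (edgeR 4.0.16, R 4.3.3), and DESeq2 1.42.0 size factors were an alternative. Ratios have exact Clopper-Pearson intervals at 95%, pooled comparisons exact conditional intervals, and densities exact Poisson intervals (Python 3.11.15, scipy 1.17.1), all covering counting error only. Ratios were read by gene at a summed count of at least 100. The steps were tested on counts simulated with counting error only, so that test cannot show how the intervals hold for a difference between conditions. Alternatives covered scaling, count minimum, fold threshold, RPKM with 0.1 added, and genes left out.

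The members and lists were chosen with earlier results of these data known. Named genes were all members, and of each further list the highest and lowest measured genes, of which 1 is not reported here. Others named there were chosen after their values were seen. Density per codon was planned, but protein lengths were not used here, so listed gene length replaced it.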

Additional observations from a re-analysis of the deposited data

How the results depend on the processing

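Scaling by total counts moved the median of the 1060 coding genes from 0.11 to 0.57 and the median of the measured members from 0.29 to 0.75, so the ratios of single genes, unlike the comparisons between lists, rest on the scaling. The number of the 15 measured members past the 2-fold rule, 0 with TMM, was 1 with DESeq2 size factors (PSMB3), where 4.34% of coding genes were called higher and 0.566% lower. With RPKM values, called by fold alone without an interval, it was 1 (PSMB3), where 3.87% of coding genes were called higher and 0.472% lower. With total counts it was 2 (PSMA3 and PSMB3), where 17.9% were called higher and 0 lower. It was 2 at 1.5-fold (14.7% and 6.23%), and 2 of 31 without the count minimum (PSMB6 higher, PSMA1 lower; 5.15% and 5.62%). It was 3 where only an interval off the coding median was asked, a rule chosen after seeing the data. Summed RPKM values put the proteasome list at 0.24. With only genes of at least 100 counts, the base ATPases over the lid came to 0.50 (0.07 to 0.93). When 1 member at a time was left out, a setting added with the data in view, the 20S core stayed between 0.20 and 0.37 relative to coding counts with all 14 intervals above 0. No value in these settings reversed a pooled ratio whose interval excluded 0. No paired analysis was possible because each group had 1 library. Leaving out a library was not possible for the same reason, and density per codon was not run.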
